A study of Mus musculus with 16 samples.

Results

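Clustered protocadherins are cadherin-like adhesion proteins of the cell surface encoded by the neighbouring Pcdha, Pcdhb and Pcdhg arrays, which lie side by side on mouse chromosome 18. Members were taken as the rows of the RNA-seq table on that chromosome whose name starts with Pcdha, Pcdhb or Pcdhg followed by a number or by A, B or C; 24 of the 25965 rows met this rule. The 24 rows are Pcdhac1, Pcdhb1 to Pcdhb22 and Pcdhga11. In the annotation of the genome build used for the files (GRCm38) the locus holds 58 variable exons, 14 in the alpha, 22 in the beta and 22 in the gamma cluster, and methylation was read for each of them.

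In nerve cells each variable exon of the alpha and gamma clusters has a promoter of its own, and its transcript is spliced to constant exons that encode a shared cytoplasmic tail, whereas each beta gene is a single exon with no constant part. Single neurons choose a few of these promoters at random, the choice involves CTCF and cohesin at the promoters and distal enhancers, and promoters that are not chosen are usually methylated. The proteins pair between cells with their own kind, which lets a neuron tell its own branches from those of others. DNA methylation is set over promoters and exons of many of these genes in the embryo by DNMT3B, and SMCHD1 is needed to keep the locus silent.

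The oocytes came from mice of the strain C57BL/6 in the labels and C57BL/6Babr in the study's methods, with no transgene or treatment named in either, were picked by pipette, washed of other cells and grouped by diameter; a library was made from a pool of oocytes and does not stand for an animal. The RNA-seq classes were 10-30 µm (postnatal days 5 to 7), 40-45 µm (days 7 to 12), 50-55 µm (days 9 to 14) and 60-65 µm (days 13 to 16), each with 2 libraries lettered A and B, and fully grown germinal vesicle (GV) oocytes of day 20 with 1 library. Reduced representation bisulphite sequencing (RRBS), which samples CpG-rich fragments, gave 2 libraries in each class from 40-45 µm upwards, and post-bisulphite adaptor tagging (PBAT), which samples the whole genome, gave 1 library at 60-65 µm. Nothing in the labels ties the letters A and B to separate mice, so the p-values measure the spread between libraries, which may be technical.

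RNA values are RPKM, reads scaled to the length of the transcript in kilobases and to the size of the library. Steps between low values showed the reads behind them, and the libraries of growing oocytes held an estimated 99369452 to 191061530 reads and the GV library 198298130. RRBS libraries held 29942043 to 57215134 CpG calls and the PBAT library 98148116 calls over 29460480 positions, with a median of 2 calls at a position. Over all positions of at least 5 reads the mean methylation level was 2.50% and 2.53% at 40-45 µm, 4.72% and 7.05% at 50-55 µm, 7.51% and 8.24% at 60-65 µm, and 22.2% in PBAT. Oocyte markers summed to 2416 to 3618 RPKM in the 9 RNA libraries.

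Rows of the table do not always stand for single genes. The Pcdhac1 row runs over chr18:36930285-37187657 and covers all 14 alpha variable exons, although the annotated Pcdhac1 starts at 37090136. The Pcdhga11 row runs over chr18:37674335-37841873 and covers 20 of the 22 gamma variable exons. They are called the alpha row and the gamma row here, and neither can be divided among its variable exons, including the C-type exons Pcdhac2, Pcdhgc3, Pcdhgc4 and Pcdhgc5. Each of the 22 beta rows covers a single variable exon. The Pcdhb6 row lies inside the annotated gene without sharing its start, the Pcdhb19 and Pcdhb21 rows run past the annotated ends, and the others keep to the annotated gene within a few bases. Beta genes are similar to each other in sequence. Reads that fit several places were given a single placement when aligned, so counts of single beta genes are uncertain.

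All 24 rows were close to 0 in growing oocytes. Their median over the 8 libraries was 0.000766 RPKM, against 0.0756 RPKM for all genes, and the highest mean, that of the alpha row, was 0.0140 RPKM. Of all genes, 59.4% had a higher mean than this, and 21.9% of genes were at 0 in every library. The summed level of the 24 rows lay between 0.0220 and 0.0498 RPKM in the 8 libraries and was 0.0968 RPKM in GV oocytes.

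The alpha row had the highest mean of the 24 over the growing libraries and reads in every library. In single libraries other rows exceeded it: the gamma row in 10-30 µm A (0.0174 against 0.0151 RPKM), Pcdhb20 by little in 40-45 µm A (0.00784 against 0.00782), and Pcdhb8 (0.0302) and Pcdhb17 (0.0247) in GV oocytes. RPKM divides by length, which was 24670 bp for the alpha row and 26094 bp for the gamma row. The lengths of Pcdhb20, Pcdhb8 and Pcdhb17 were 3395, 2340 and 3269 bp. In reads Pcdhb20 held 4 against 29 in 40-45 µm A, and Pcdhb8 and Pcdhb17 held 14 and 16 against 95 in GV oocytes. The alpha row held 37 and 79 reads at 10-30 µm, 29 and 65 at 40-45 µm, 38 and 48 at 50-55 µm, 44 and 54 at 60-65 µm and 95 in GV oocytes. As RPKM these were 0.0176 ± 0.00357, 0.0108 ± 0.00422, 0.0128 ± 0.000362 and 0.0145 ± 0.00344 (mean ± SD, n = 2 in each class), and 0.0194 in GV oocytes. Both 10-30 µm libraries (0.0151 and 0.0201) were above both of 40-45 µm (0.00782 and 0.0138) and both of 50-55 µm (0.0131 and 0.0126), and they overlapped those of 60-65 µm (0.0170 and 0.0121). The 3 larger classes overlapped each other.

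The gamma row was highest in the smallest oocytes. It held 45 and 49 reads at 10-30 µm, 30 and 25 at 40-45 µm, 19 and 11 at 50-55 µm, 17 and 29 at 60-65 µm and 15 in GV oocytes. The RPKM was 0.0174 and 0.0118 at 10-30 µm, 0.00765 and 0.00501 at 40-45 µm, 0.00619 and 0.00273 at 50-55 µm, 0.00620 and 0.00614 at 60-65 µm and 0.00290 in GV oocytes. Both libraries at 10-30 µm were above all the others, while the 3 larger classes overlapped.

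Beta genes were barely detected. Over the 8 libraries the 22 genes together had 65 reads, no gene had more than 4 reads in any library, and 6 had none. Pcdhb1, Pcdhb2, Pcdhb4, Pcdhb5 and Pcdhb6, a run at the alpha-facing end of the cluster apart from Pcdhb3, had no read in any of the 9 libraries. A total of 3 reads over the 8 libraries, the limit that a count of 0 allows, corresponds to 0.000363 to 0.00111 RPKM for a beta gene, depending on the length of its row. The highest means were those of Pcdhb17 at 0.00230 RPKM with 9 reads and Pcdhb15 at 0.00181 RPKM with 5 reads. Intervals and limits given here cover counting error only.

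In the GV library the beta genes held 43 reads, which is 21.7 for every 100000000 reads of the library (exact Poisson 95% interval 15.7 to 29.2). The 8 growing libraries held 4 to 11 beta reads each, or 2.59 to 8.56 for the same number of reads, and the upper ends of their intervals reached from 6.11 to 16.2. Pcdhb17 with 16 reads and Pcdhb8 with 14 made up 69.8% of the beta reads of GV oocytes, and Pcdhb15, Pcdhb11 and Pcdhb16 followed with 5, 4 and 2. Pcdhb8 had 4 reads in the 8 growing libraries together. There was a single GV library, and no test was made.

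**Figure D1:**
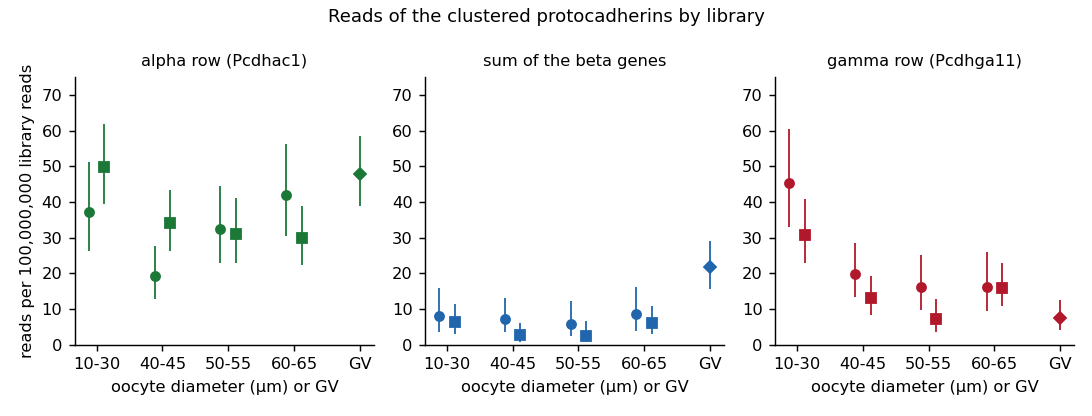
Reads of the alpha row, of the 22 beta genes summed and of the gamma row in each of the 9 RNA-seq libraries, as reads for every 100000000 library reads on the vertical axis against oocyte class (diameter in µm, or GV); circles are library A, squares library B and diamonds the GV library, and lines are exact Poisson 95% intervals. The gamma row has its highest points at 10-30 µm, at 45.3 and 30.8, and the beta sum is highest in GV oocytes at 21.7.

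Expression was compared between classes over all genes, with limma-trend on log2(RPKM + 0.1) and Benjamini-Hochberg adjustment over the genes whose RPKM was 0.5 or more in at least 2 growing libraries. None of the 24 rows reached this level, so 0 members were tested and 0 called in any of the 3 comparisons. Of the 10518 genes tested, 23.1% were called between 40-45 and 10-30 µm, 37.3% between 60-65 and 40-45 µm, and 63.3% between 60-65 and 10-30 µm. At 40-45 µm 1362 of the called genes were higher and 1065 lower, and without scaling of the libraries the split was 1088 and 1521.

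With no filter on low values, 25965 rows were tested, and the unadjusted p was under 0.05 for 1, 1 and 3 of the 24 members in the same order. Pcdhb9 alone was called by limma, between 60-65 and 10-30 µm, where 31.1% of all rows were called. It had 0 reads in both libraries at 10-30 µm and 1 and 2 reads at 60-65 µm, a difference of 0.05 ± 0.01 (SE) on the log2(RPKM + 0.1) scale with limma adjusted p = 0.0158. These values lay far below the 0.1 added before logs, and the SE and p do not account for the counting error of so few reads.

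The recovered reads were also tested with edgeR's quasi-likelihood test, chosen after seeing the data, over the 15015 genes with at least 10 reads in 2 libraries. Only the alpha and the gamma row had enough reads. Between 40-45 and 10-30 µm 22.0% of genes were called and neither row was, the gamma row changing by -1.09 ± 0.39 (log2, SE; adjusted p = 0.0712) and the alpha row by -0.60 ± 0.30 (adjusted p = 0.183). Between 60-65 and 40-45 µm 36.1% were called and again neither row, with -0.11 ± 0.42 (adjusted p = 0.862) for gamma and 0.29 ± 0.31 (adjusted p = 0.482) for alpha. Between 60-65 and 10-30 µm, where 61.0% of genes were called, the gamma row fell by 1.20 ± 0.40 on the log2 scale (adjusted p = 0.0248) and the alpha row differed by -0.31 ± 0.30 (adjusted p = 0.393). Over 9 fits, with all libraries or a library left out, the 60-65 against 40-45 µm change ran from -0.43 to 0.23 for gamma. For alpha it ran from -0.02 to 0.74. Changes from 10-30 µm stayed negative for both rows, at -1.05 to -0.30 and -0.53 to -0.07 for alpha. The gamma call was lost without 10-30 µm A (edgeR adjusted p = 0.128), without 60-65 µm A (0.0898) or without 60-65 µm B (0.110).

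The collagen genes Col1a1 and Col3a1, which ovarian stroma expresses, were also highest in the smallest oocytes. Col1a1 was at 1.63 and 1.16 RPKM and Col3a1 at 1.16 and 0.796 at 10-30 µm, against 0.400 and 0.241 and then 0.259 and 0.216 at 60-65 µm, a fall of 1.83 and 1.65 on the log2 scale (limma adjusted p = 0.00601 and 0.00145). With no filter on low values Col1a1 lost its call (adjusted p = 0.0738), and with 1 RPKM added before logs in place of 0.1 the falls were 0.85 and 0.67. Col3a1 reached 0.5 RPKM only at 10-30 µm and Col1a1 only there and in 40-45 µm A (0.795). Both were thus tested through the end of growth where they were high. They belong to a list of 7 markers of stroma and endothelium, which summed to 3.60 and 2.68 RPKM at 10-30 µm, 2.89 and 1.89 at 40-45 µm, 3.79 and 3.25 at 50-55 µm, 5.50 and 4.84 at 60-65 µm and 5.98 in GV oocytes. The whole list thus had its highest sums at 60-65 µm and in GV oocytes, where the gamma row did not. Of its 3 tested genes 2 fell, and the endothelial gene Pecam1 rose by 2.81 ± 0.13 on the log2 scale (limma adjusted p = 5.68e-06) between 10-30 and 60-65 µm. With Pecam1 set aside, a choice made after its values were seen and although Cdh5 is endothelial too, the other 6 summed to 3.03 and 2.15 RPKM at 10-30 µm, 1.32 and 0.513 at 40-45 µm, 0.560 and 0.348 at 50-55 µm, 0.795 and 0.650 at 60-65 µm and 0.295 in GV oocytes. Most of this sum was collagen RNA, and Acta2, a gene of smooth muscle in the list, was at 0.0735 and 0.0353 RPKM at 10-30 µm and 0.0427 and 0.0745 at 60-65 µm, which overlap. The part of RNA from other ovarian cells in the gamma reads was not tested. In these pooled samples fewer cells of a type and less RNA per cell cannot be told apart.

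Granulosa markers summed to 0.767 to 2.94 RPKM in growing oocytes and 4.05 in GV oocytes, with Cyp19a1 and Inha, the 2 of 8 that were tested, both rising between 10-30 and 60-65 µm. Among growing libraries both reached 0.5 RPKM only at 50-55 and 60-65 µm, so they were tested through the classes where they were high. The GV sum was carried by Cyp19a1 at 2.53 and Kitl at 0.907 RPKM, and Inha, Amh, Foxl2, Wt1 and Amhr2, 5 of the 8, were lower in the GV library than in both 60-65 µm libraries. Blood markers summed to 0.276 to 0.542 RPKM. Of the 4 neuron markers in the table, the tubulin gene Tubb3 had a mean of 34.7 RPKM and rose by 1.60 ± 0.09 on the log2 scale between 10-30 and 60-65 µm (limma adjusted p = 7.07e-06), and the sum over all 4 exceeded that of Tubb3 by little, 16.3 against 16.2 RPKM in 10-30 µm A. The other 3 were not tested. The synaptic vesicle gene Syn1 was at 0.0519 and 0.0763 RPKM at 10-30 µm, above all other libraries, and at 0.00865 and 0.0218 at 60-65 µm and 0.00611 in GV oocytes. Snap25, also of the synapse, was at 0.00148 and 0.00185 RPKM at 10-30 µm and 0.00140 and 0.00488 at 60-65 µm, and the neuronal splicing factor gene Rbfox3 at 0.00519 and 0.0238 and then 0.00817 and 0.00950, so that both overlapped between these classes. The part of these cells in the reads of the alpha and beta clusters was not tested.

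Other gene families gave a frame for these levels. Of 39 Hox genes, developmental regulators that also lie in arrays, the median mean was 0.00249 RPKM, 4 were at 0 in all 9 libraries and Hoxa7 alone reached a mean of 0.5 RPKM, at 0.895. Of 12 protocadherins that lie outside the clusters the median mean was 0.00604 RPKM. Pcdh9, an adhesion gene outside the arrays, was at 2.47 and 2.75 RPKM at 10-30 µm, 6.27 and 6.18 at 40-45 µm, 11.1 and 10.7 at 50-55 µm, 12.5 and 13 at 60-65 µm and 13.7 in GV oocytes. It rose by 2.25 ± 0.09 on the log2 scale between 10-30 and 60-65 µm (limma adjusted p = 4.56e-06), and Pcdh15, a protocadherin of sensory hair cells with a mean of 0.409 RPKM, fell by 0.58 ± 0.13 (adjusted p = 0.00441). Pcdh9 and Pcdh15 were the only 2 of the 12 to be tested. Pcdh15 reached 0.5 RPKM only in the 2 libraries at 10-30 µm (0.590 and 0.539). It was thus tested only through the class where it was high, and the filter favoured a fall.

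**Figure D2:**
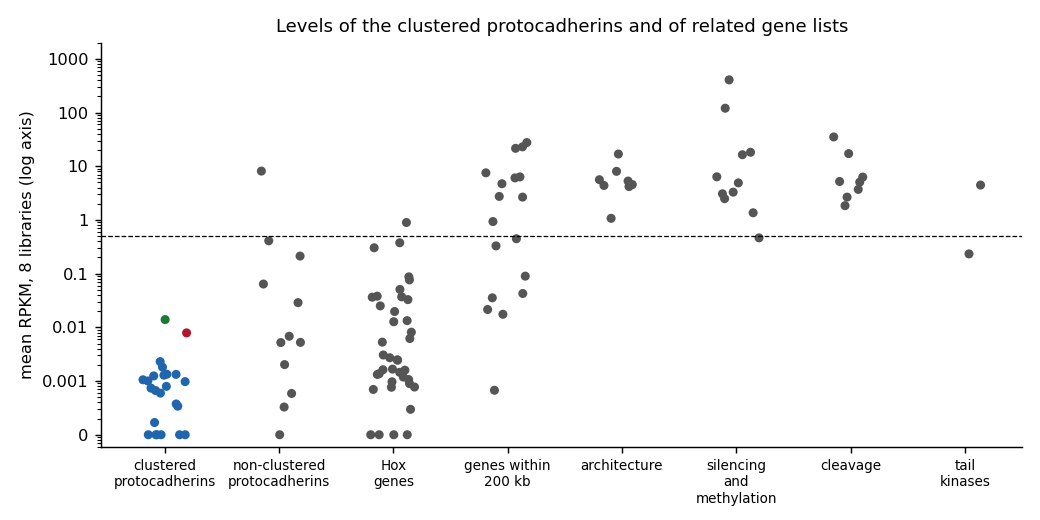
Mean RPKM over the 8 libraries of growing oocytes (log axis; genes at 0 are drawn at the lowest mark) for each clustered protocadherin row (alpha green, beta blue, gamma red) and for the other gene lists, with a dashed line at 0.5 RPKM. All 24 clustered rows lie at or below 0.0140 RPKM, whereas 10 of the 18 genes within 200 kb have a mean of at least 0.5 RPKM.

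Of 18 rows within 200 kb of the clusters that are no members, 10 had a mean of at least 0.5 RPKM and the others ran down to 0.0175 for Arap3 and 0.000673 for Gm6756. Of the 18, 12 were tested, and 3 rose and 3 fell between 10-30 and 60-65 µm, that is 6 of 12 where 63.3% of all tested genes were called. Taf7, a subunit of the general transcription factor TFIID that lies between the beta and gamma clusters, had a mean of 23.0 RPKM and differed by 0.06 ± 0.17 (log2, adjusted p = 0.759). Ik, a splicing factor gene on the alpha side, had a mean of 27.6 RPKM. Tmco6 rose by 1.17 ± 0.20, Diap1 by 0.90 ± 0.26 and Fchsd1 by 0.60 ± 0.16, while Hars2 and Hars, which encode histidyl-tRNA synthetases, fell by 1.65 ± 0.16 and 1.22 ± 0.14 and Ndufa2, a subunit of respiratory complex I, by 0.41 ± 0.15 (all log2 with SE, limma adjusted p = 5.63e-05 to 0.0417). With 1 RPKM added before logs Hars2, which had a mean of 0.329 RPKM, fell by 0.54 and Fchsd1 rose by 0.31. Hars2 reached 0.5 RPKM only at 10-30 µm (0.654 and 0.684). It was thus tested only through the class where it was high, and the filter favoured a fall.

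Regulators of the locus were present at higher levels. All 8 rows of the list for its architecture (Ctcf, cohesin and its loaders and releasers) were tested, with means of 1.07 to 16.9 RPKM. Between 10-30 and 60-65 µm 3 rose and 2 fell, 5 of 8 where 63.3% of all tested genes were called. The insulator protein gene Ctcf was at 3.86 and 4.82 RPKM at 10-30 µm and 7.68 and 6.72 at 60-65 µm, a rise of 0.73 ± 0.11 (log2, SE; limma adjusted p = 0.00054). The cohesin release factor gene Wapal rose by 0.48 ± 0.11 and the cohesin subunit gene Smc3 by 0.33 ± 0.11, while the cohesin subunit genes Stag1 and Smc1a fell by 0.39 ± 0.10 and 0.44 ± 0.14.

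Of the 11 genes for silencing and methylation, all tested, 6 rose and 1 fell in the same comparison, so that 7 of 11 were called beside the same 63.3% of all tested genes. Dnmt3l, the cofactor of de novo methylation, was at 0.825 and 0.888 RPKM at 10-30 µm and 11.3 and 8.25 at 60-65 µm, a rise of 3.35 ± 0.19 (log2, SE; limma adjusted p = 6.72e-06). The histone H3K9 methyltransferase gene Setdb1 rose by 0.66 ± 0.09, the de novo methyltransferase gene Dnmt3a by 0.51 ± 0.13, the repressor gene Rest by 0.41 ± 0.11 and the H3K9 methyltransferase gene Ehmt1 by 0.40 ± 0.11, and its partner Ehmt2 fell by 0.54 ± 0.11. Dnmt3b, whose enzyme methylates this locus in the embryo, was at 1.28 and 1.38 RPKM at 10-30 µm and 1.70 and 1.68 at 60-65 µm, a rise of 0.33 ± 0.10 (log2, SE; limma adjusted p = 0.0160). Smchd1 had a mean of 6.35 RPKM and differed by 0.01 ± 0.11 (adjusted p = 0.918). The maintenance methyltransferase gene Dnmt1 had the highest mean of the list, 406 RPKM.

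For proteins that act on protocadherins, 8 of 8 genes of the cleaving proteases were tested and Aph1c alone was called, beside the same 63.3% of all tested genes, rising by 0.48 ± 0.15 (log2, SE; limma adjusted p = 0.0240). The gamma-secretase subunit gene Psenen had the highest mean of the list, 35.1 RPKM. Of the 2 kinases bound by the shared tail, Ptk2 had a mean of 4.46 RPKM and differed by 0.12 ± 0.10 (adjusted p = 0.290), and Ptk2b was not tested. Smc3, Smc1a, Stag1, Dnmt3a, Dnmt3b, Rest, Ehmt1, Aph1c, Diap1, Fchsd1 and Ndufa2 each lost their call without at least 1 of 60-65 µm A, 60-65 µm B, 10-30 µm A or 10-30 µm B; for Diap1 these were 10-30 µm A (adjusted p = 0.0867) and 60-65 µm A (0.0983). With no filter on low values Smc1a, Aph1c, Diap1, Fchsd1 and Ndufa2 lost it as well, and with the 4 libraries of the compared classes alone Dnmt3b (adjusted p = 0.0535) and Ndufa2 (0.0703). Without 10-30 µm A the log2 changes shrank to -0.16 for Ndufa2, -0.22 for Smc1a, 0.34 for Fchsd1 and 0.53 for Diap1. Ndufa2 kept its call in 6 of 15 alternatives.

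The variable exons carried little methylation in 60-65 µm oocytes. In PBAT all 58 were measured, at 22 to 177 CpG positions each, and their levels ran from 2.73% to 19.1% with a median of 6.74%. Of the 58, 49 were under 10% and none reached 25%. In the window between 500 and 2500 bp after the gene start, which is where most of the variable exon lies, the 24 rows had a median of 7.49% and a highest value of 17.9%. Over the 16037 genes measured in that window the median was 5.88%, and 14.1% of them reached 25%. Of genes under 0.05 RPKM, 10.1% did so. The 39 Hox genes had a median of 2.94% and a highest value of 11.7% over the 37 measured.

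Exons at 10% or more lay in the alpha and beta clusters. They were Pcdha6 (19.1%), Pcdha1 (15.1%), Pcdha8 (15.0%) and Pcdha7 (12.3%) in the alpha cluster and Pcdhb6 (16.4%), Pcdhb9 (15.6%), Pcdhb5 (11.6%), Pcdhb8 (11.4%) and Pcdhb4 (10.1%) in the beta cluster. The highest gamma exon was Pcdhgc5 at 8.83%. Of the C-type exons, which neurons use without random choice, Pcdhac1 was at 9.91%, Pcdhac2 at 6.25%, Pcdhgc3 at 4.70% and Pcdhgc4 at 4.13%. The exon named Pcdhga11 was at 4.55%.

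By cluster the mean over positions of the variable exons in PBAT was 8.97% for alpha, 7.83% for beta and 5.90% for gamma. With calls pooled over positions the values were 8.87% (Wilson 95% interval 8.35 to 9.41), 7.80% (7.35 to 8.27) and 5.58% (5.22 to 5.97). There was a single PBAT library, so the differences between clusters have no replicate check in this assay.

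RRBS read fewer exons at fewer positions and gave lower values. At 60-65 µm it measured 6 and 5 of the 14 alpha exons, 4 of the 22 beta exons in both libraries and 21 and 17 of the 22 gamma exons. The means over positions were 2.97% and 1.79% in alpha, 4.35% and 4.08% in beta and 1.83% and 0.491% in gamma. A single exon, Pcdhb5, carried much of the beta values, which were 2.79% and 1.59% without it. At positions of at least 10 reads the alpha exons were at 3.29% and 2.53% and the beta exons at 4.51% and 1.54%, so the order of alpha and beta in 60-65 µm B turned with this choice. At the positions that RRBS and PBAT both covered, RRBS gave 2.53% and 1.22% and PBAT 7.28% at 41 alpha positions, 2.78% and 1.98% against 6.42% at 17 beta positions, and 1.48% and 0.455% against 5.27% at 87 gamma positions. PBAT was thus the higher at the same positions in all 3 clusters, and levels of the assays cannot be set side by side. Which step of either assay made this difference was not tested.

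At positions of at least 5 reads, exon methylation in RRBS was low in all 3 diameter classes. Alpha exons had 2.55% and 2.02% at 40-45 µm and 2.51% and 1.68% at 50-55 µm, beta exons 2.49% and 3.89% and then 2.85% and 5.81%, and gamma exons 0.968% and 0.855% and then 0.914% and 5.16%. Without Pcdha1 the alpha values were 1.05% and 0.499% at 40-45 µm and 2.17% and 0.600% at 50-55 µm, and without Pcdhb5 the beta values at 40-45 µm were 1.53% and 0.452%. The gamma value of 5.16%, in 50-55 µm B, was the highest in gamma, at 124 positions against 193 to 263 in the other libraries. In that library Pcdhga5 was at 41.0% over 5 positions and Pcdhga7 at 34.0%, and the median gamma exon was at 0.532%. The levels of 50-55 µm A depended on this minimum, since with positions of 1 read or more its alpha, beta and gamma exons were at 21.5%, 35.7% and 14.2%.

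Of 26 exons measured in all 4 libraries, the median difference between 60-65 and 40-45 µm was 0.217 percentage points, with 1 exon above 5 points and 1 below -5. Pcdhga5 had the highest difference, at 1.61% and 0% at 40-45 µm and 13.1% and 0% at 60-65 µm, so that the classes overlapped. Pcdha1 had the lowest, at 11.9% and 12.6% at 40-45 µm, 4.94% and 6.59% at 50-55 µm and 9.97% and 3.80% at 60-65 µm. The classes did not overlap in 9 of the 26 exons, with 6 higher and 3 lower at 60-65 µm, beside 34.6% of the 5038 genes whose window between 500 and 2500 bp after the start was measured in the same 4 libraries. The 6 were Pcdhac1 (0.728% and 0.303%, then 5.18% and 2.67%), Pcdhb2 (1.20% and 0.515%, then 3.19% and 3.39%), Pcdhb1, Pcdha3, Pcdhac2 and Pcdhgb6, and the 3 were Pcdha1, Pcdhgc4 and Pcdhgc5. Pcdhb1 went from 0.439% and 0.338% to 2.29% and 0.768%, and Pcdhgc4 from 1.98% and 4.35% to 0.233% and 0.769%. The share of exons whose classes did not overlap was close to that of all genes, so it sets the exons apart in nothing. Among those genes 1158 windows were higher and 585 lower at 60-65 µm.

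Pcdhb5 was the most methylated beta exon in RRBS. It was at 8.05% and 20.7% at 40-45 µm, 5.72% in 50-55 µm A and 12.7% and 16% at 60-65 µm, each over 9 positions, and at 11.6% in PBAT. It had no read in any RNA-seq library. Pcdhb5 was singled out here after its values were seen.

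**Figure D3:**
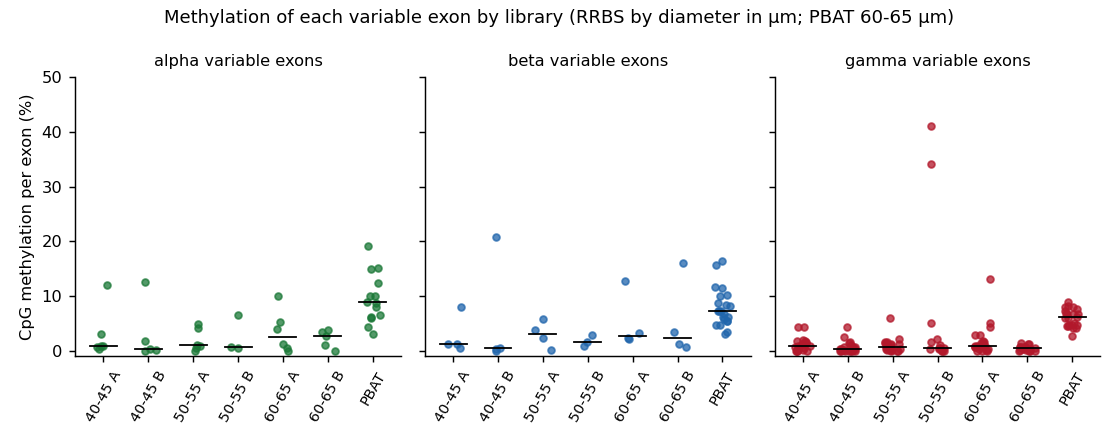
Methylation level of each measured variable exon (percent, vertical axis) in the 6 RRBS libraries and the PBAT library, by cluster; each point is an exon with at least 5 positions and black bars are medians. Points stay under 25% in all libraries except Pcdhga5 and Pcdhga7 in 50-55 µm B, and PBAT medians lie above RRBS medians.

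Methylation was tested between classes over all genes, in the 500 bp to either side of the start and in the window between 500 and 2500 bp after it, by edgeR's quasi-likelihood test on methylated and unmethylated calls of windows measured in all 6 RRBS libraries with a mean of at least 5%. Of the starts of the 24 rows, those of Pcdhb1 and Pcdhb2 alone were measured in all 6 libraries, the higher mean was 0.991%, and 0 members were tested. Of the 170 start windows tested, 43.5% were called between 50-55 and 40-45 µm and 74.7% between 60-65 and 40-45 µm. Of the 177 downstream windows tested, 55.9% and 79.1% were called.

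Of the members, 5 had a downstream window measured in all 6 libraries and 1 reached the minimum level: that of the Pcdhac1 row, which lies on the Pcdha1 exon. Its log2 odds of methylation changed by -0.83 between 40-45 and 50-55 µm (edgeR adjusted p = 0.262) and by -0.84 between 40-45 and 60-65 µm (adjusted p = 0.230). No member was called or had an unadjusted p under 0.05 in any of the 4 comparisons, also with no minimum level, where 2 start and 5 downstream windows of members were tested. Beta and gamma windows thus entered no test at the main settings.

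Starts of the variable exons were as low. In PBAT the 14 alpha starts had a median of 7.27%, the 5 measured beta starts 2.22% and the 20 measured gamma starts 5.39%, against 3.46% over all genes. The highest in each cluster were Pcdha8 at 22.5% (10 positions) and Pcdha11 at 14.3% (16 positions), Pcdhb4 at 15.1% (5 positions) and Pcdhb8 at 6.92% (13 positions), and Pcdhgb7 at 10.1% (19 positions) and Pcdhga7 at 9.89% (38 positions). The lowest were Pcdha3 at 0% of 5 positions, Pcdhb22 at 0% of 6 positions and Pcdhgb4 at 1.01% of 40 positions. Among C-type exons the starts of Pcdhac1, Pcdhac2, Pcdhgc3, Pcdhgc4 and Pcdhgc5 were at 8.12%, 5.58%, 4.83%, 7.33% and 4.38%. In the RRBS libraries no measured start passed 5.54%.

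Within the alpha exons the level was higher towards the 3′ end than at the start. In PBAT, in steps of 250 bp, it was 6.16% over the 250 bp from the start (121 positions), 3.43% in the step from 750 bp (52 positions) and 12.5%, 9.92% and 10.4% in the steps that began 1500, 1750 and 2000 bp after it (180, 234 and 158 positions). Beta exons went from 4.97% to 7.14%, 9.58% and 7.92% over the same steps, and gamma exons from 4.33% to 3.19%, 6.07% and 6.62%. This profile pools exons of a cluster in a single library and has no test.

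Base composition differed between the clusters. The ratio of observed to expected CpG in the window of 500 bp around the start had a median of 0.706 in alpha, 0.621 in gamma and 0.390 in beta, against 0.495 over 25574 starts of all genes. In PBAT 14 of 14 alpha, 20 of 22 gamma and 5 of 22 beta starts were measured. RRBS did not follow the order of the ratio, with 2 alpha, 10 gamma and 2 beta starts measured in 60-65 µm A. The tetranucleotide CGCT, the core of a promoter element shared by these genes and searched on both strands from 250 bp before the start to 49 bp after it, was found at 14 of 14 alpha, 22 of 22 beta and 21 of 22 gamma starts, or 95.5% of the latter. Of all gene starts 66.1% hold these letters, and a match is no evidence of a bound factor.

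In PBAT the sequence outside annotated exons and repeats was at 24.0% in alpha (190 positions), 8.22% in beta (53 positions) and 5.07% in gamma (203 positions). The alpha value rested on a pseudogene, Gm36858, and without it was 8.84% (126 positions). Repeats between exons were at 28.4%, 24.1% and 9.63%, the alpha repeats at 26.8% without Gm36858. Over the whole span the means were 12.4%, 8.73% and 6.11%, and 10.5% for alpha without Gm36858. The alpha constant exons were at 9.17% over 20 positions and the gamma constant exons at 19.6% over 26 positions.

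In bins of 10 kb the 68 measured bins of the clusters had a PBAT median of 8.09%, and 8 of them, 11.8%, reached 25%. Over the 207283 measured bins of the autosomes and the X chromosome the median was 13.5%, and 32.2% reached 25%. Within the locus 5 of 24 alpha bins, 2 of 25 beta bins and 1 of 19 gamma bins were at 25% or more, against 15 of 31 bins in the gaps and flanks. The single gamma bin was the last, at 49.9%, which runs past the end of the cluster.

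**Figure D4:**
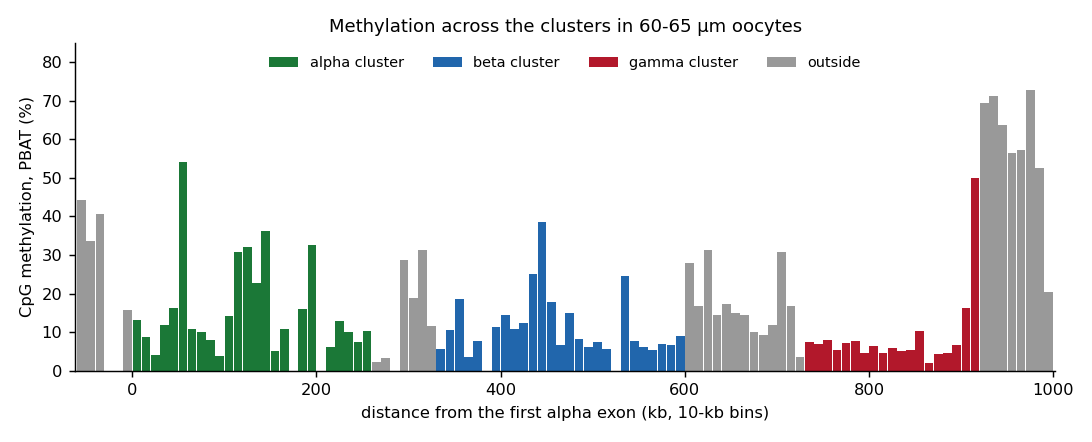
CpG methylation in PBAT at 60-65 µm (percent, vertical axis) in 10-kb bins along the locus, by distance in kb from the first alpha exon; bins are coloured by cluster and grey bins lie outside the clusters, with gaps where fewer than 5 positions were covered. Gamma bins have a median of 6.36%, and the 7 grey bins that follow the cluster are at 52.6% to 72.8%.

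At the gamma end the level changed within a few kilobases. Diap1, a formin gene that regulates actin, lies on the opposite strand at chr18:37843601-37935476, so that its 3′ end is 1727 bp from the last gamma constant exon (chr18:37839903-37841873). In PBAT the 17768 bp between the last gamma variable exon and the last constant exon were at 7.46% (108 positions), the last constant exon at 23.2% (22 positions), the gap to Diap1 at 18.6% (16 positions) and the nearest 40000 bp of Diap1 at 67.9% (111 positions). With calls pooled, the last constant exon was at 22.6% (Wilson 95% interval 16.7 to 29.8) and the nearest 40000 bp of Diap1 at 69.0% (65.8 to 71.9). Over its whole length Diap1 was at 47.9% (277 positions).

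RRBS followed this boundary through growth at few positions. In the gap between gamma and Diap1 the level was 0.755% and 5.06% at 40-45 µm, 3.56% and 2.27% at 50-55 µm and 10.3% and 13.1% at 60-65 µm, over 4 to 10 positions. A single position at 42.9%, not covered at 60-65 µm, carried the value of 40-45 µm B, which was 0.860% without it and 2.41% with calls pooled. Both 60-65 µm libraries were above the 4 others, also with the highest position of each library left out (8.21% and 10.5%, against 3.10% or less). In the nearest 40000 bp of Diap1, over 4 positions, it was 1.47% and 2.25%, then 24.9% and 0%, then 53.5% and 59.4%. Over the whole of Diap1 it was 0.701% and 1.84% at 40-45 µm, 2.85% and 3.01% at 50-55 µm and 7.06% and 10.8% at 60-65 µm, over 23 to 43 positions. The gamma variable exons in the same libraries ended at 1.83% and 0.491%. With 2 libraries a class an exact permutation test of such a value cannot fall below 0.333, and none was made.

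**Figure D5:**
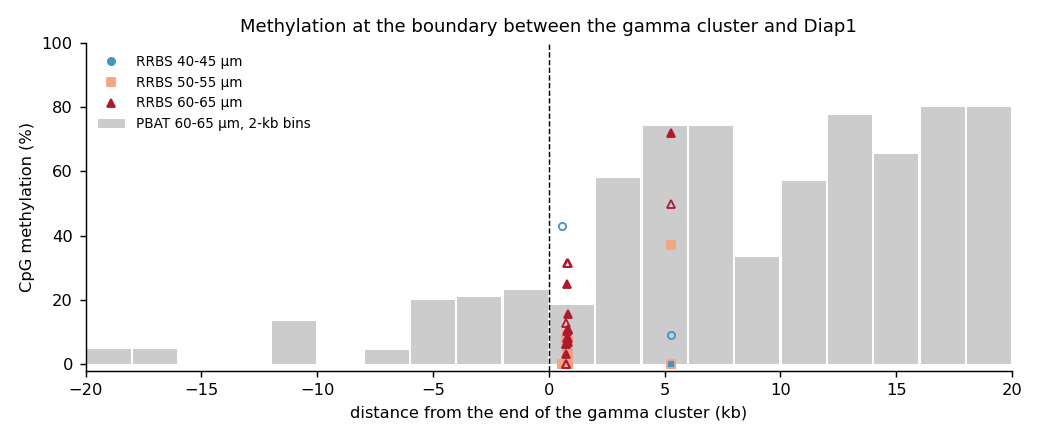
CpG methylation (percent, vertical axis) by distance in kb from the end of the gamma cluster (dashed line); grey bars are 2-kb bins of PBAT at 60-65 µm, and coloured marks are single RRBS positions by diameter class, filled for library A and open for library B. PBAT bins go from 23.2% in the last 2 kb of gamma to 58.1% and 74.2% in the bins that begin 2 and 4 kb past its end.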

How the data were processed

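Members and gene lists were chosen with earlier results of these data known. RNA values are RPKM as deposited by the authors, per gene and library, although the table is named as read counts. The libraries were strand-specific by the study's methods, which name Cufflinks for transcript levels as FPKM and SeqMonk for RNA-seq analysis; neither is tied there to this table, and whether its values used strand is not given in the sources used here. The submitters' processing notes name Trim Galore 0.2.8 and 0.3.5, Bismark 0.10.0 and 0.14.0 and TopHat2 2.0.9, with reads placed on GRCm38. Bismark files were deposited by the authors with the percent methylated and the count of methylated and unmethylated calls for each CpG position.

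Reads were recovered from RPKM steps, which came out whole, within 0.002, for 100% of single-exon genes of 1 to 50 reads in every library. A mean over positions of at least 5 reads, for regions of at least 5 positions, gave each methylation level; Gm36858, the gap to Diap1 and the nearest 40000 bp of Diap1 had fewer in some libraries, with the number given beside the values. Tests used limma 3.58.1 and edgeR 4.0.16 in R 4.3.3, with a threshold of 0.05 after Benjamini-Hochberg adjustment, after tests on simulated data. RPKM were scaled by a trimmed mean (30% by ratio, 5% by level), 0.1 was added before logs, and the GV library entered no test. No column of per-sample values was left out.

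The text names the C-type members, in each cluster the 2 rows of highest and 1 of lowest expression, the 2 starts of highest and 1 of lowest PBAT level, the 2 exons of largest RRBS difference, members that passed a test and, per list, up to 6 called genes or else the 2 of highest level. The part on lists was not applied to the oocyte, granulosa, stroma and endothelium, blood and neuron markers. Others, such as Dnmt3b, Syn1, Snap25, Rbfox3, the exons and position left out of means, Acta2, Arap3, Gm6756, exons whose classes did not overlap, exons of at least 10% in PBAT, Pcdhga7 in 50-55 µm B, the marker genes named and beta genes with GV reads, were named after their values were seen. A gene that this rule would name is not reported here. No sequence is printed.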

Additional observations from a re-analysis of the deposited data

Results flagged for a closer look

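The GV library belongs to no comparison, and 3 beta genes had over 3 reads there and an RPKM more than 1.5 times that of any growing library. Pcdhb17 had 16 reads, against at most 3 in a growing library. Pcdhb8 had 14 reads, against at most 3, and reached 0.0302 RPKM, the highest single value of any of the 24 rows. Pcdhb11 had 4 reads, against at most 1. These are single-library values with no replicate check, and reads of near-identical beta genes may have been placed on either. The rule was applied to the 24 rows alone, so the share of all genes that would meet it is not known. Whether the beta genes stand out in this is thus not shown.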

How the results depend on the processing

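In the 7 tests no member was called under the main settings, and none under any alternative except 1 member without a filter on low values (Pcdhb9) and 1 with edgeR on recovered reads (the gamma row), both between 60-65 and 10-30 µm; these settings test rows that the main filter leaves out. The gamma row was called in 6 of 9 edgeR fits there, with adjusted p from 0.0169 to 0.128. With each library left out and with the replicate block 1 member was tested, in the downstream windows alone, and was not called; the other 5 tests held 0 members, so their counts of 0 say nothing. Deviations of same-lettered libraries correlated at 0.596, 0.588 and 0.670 among 10-30, 40-45 and 50-55 µm but at -0.227, -0.0258 and 0.113 with 60-65 µm, and at -0.0651, 0.0327 and -0.191 in RRBS; not every pair exceeded 0.1, and the letters were not taken as pairing. With the replicate block 3343, 4857 and 7281 genes were called in the 3 expression comparisons against 2427, 3918 and 6657. Between 40-45 and 10-30 µm the genes called numbered 1597 with no filter, 1152 with the 4 libraries alone, and 843 to 3097 with a library left out; between 60-65 and 40-45 µm they numbered 1450 to 4580 with a library left out. With no minimum methylation 4 and 66 of 11030 start windows and 2 and 72 of 4368 downstream windows were called; with at least 3 positions 158 and 247 downstream windows, with a window of 1000 bp 112 starts at 50-55 µm, and 64 and 65 downstream windows at 50-55 µm without a 60-65 µm library. The gamma row at 60-65 µm was 0.00608 RPKM with scaling. Exon levels with a minimum of 1 read were 6.40% and 4.55% in alpha and 5.46% and 5.06% in beta (RRBS, 40-45 and 60-65 µm), 13.3%, 19.5% and 10.8% in alpha, beta and gamma at 50-55 µm, where 50-55 µm A was at 21.5%, 35.7% and 14.2%, and 6.43% in gamma in PBAT. With a minimum of 10 reads they were 3.03% in beta at 60-65 µm, 0.823% in gamma at 40-45 µm and 4.99% in gamma in PBAT. With pooled calls they were 2.97%, 2.70% and 3.57% in alpha in order of diameter and 1.78% and 2.69% in beta at 40-45 and 60-65 µm. The cause was not tested. The log2 odds of the Pcdhac1 row's window stayed below 0 under all settings, from -1.04 to -0.63 and from -1.13 to -0.55. With 1 RPKM added before logs the called change between 60-65 and 10-30 µm shrank by over 1.5 times for Pcdh15 (-0.22), Stag1 (-0.22), Dnmt3b (0.21), Pecam1 (1.80), Cyp19a1 (0.88), Inha (0.39) and Hoxa7 (0.95), besides Col1a1, Col3a1, Hars2 and Fchsd1. Depth limits the beta genes most, with at most 4 reads in a growing library, and RRBS covered 4 beta exons in both classes.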

Other observations

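The alpha bin of highest PBAT level, which began 50 kb after the first alpha exon and stood at 54.1%, lies over Gm36858, an annotated pseudogene at chr18:36976294-36990270 (GRCm38). It was looked at after its bin had been seen. PBAT gave 54.2% over 72 positions. RRBS gave 42.7% and 60.4% at 40-45 µm, 45.8% and 82.3% at 50-55 µm and 55.9% and 60.4% at 60-65 µm over 3 or 4 positions, so the classes overlapped and the level was already above 40% at 40-45 µm, when the alpha variable exons of the whole cluster had means of 2.55% and 2.02% and the next bin, which began 60 kb after the first alpha exon, was at 4.54% over 5 positions and 7.75% at 1 position.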
